A study of Homo sapiens with 18 samples.

Results

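Ribonucleotide reductase, the enzyme that makes deoxyribonucleotides (dNTPs), is encoded by RRM1, RRM2 and RRM2B. These 3 genes were taken by name from the 26485 genes of the deposited table, and all 3 were among the 13096 genes tested, those with a mean of at least 10 normalized counts over the libraries. Messenger RNA was sequenced from the human pancreatic cancer line L3.6pl, called Par here, and from its gemcitabine-resistant derivative GemR, in 6 groups of 3 libraries. GemR cells with an siRNA against STIM1 (siSTIM1), GemR cells with a control siRNA (siCont) and Par cells with siCont were each given either 500 nM thapsigargin or DMSO vehicle for the last 3 h, with the siRNAs present for 48 h. Thapsigargin blocks the pump that fills the ER calcium store, and STIM1 is the sensor of that store. GemR alone was maintained in 64 nM gemcitabine, a deoxycytidine analogue whose diphosphate form inhibits ribonucleotide reductase, and there was no Par group with siSTIM1. GemR is a single derivative, so resistance cannot be told apart from drug exposure or from any other way in which GemR differs from Par.

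RRM1 encodes the large subunit, which holds the catalytic site and the sites that sense the nucleotide balance. RRM2 and RRM2B encode alternative small subunits, each of which carries the iron centre and tyrosyl radical that the reaction needs. RRM2 is the small subunit of dividing cells: its transcription depends on E2F and rises towards S phase, and its protein is destroyed through cyclin F and later through the APC/C activator CDH1 (FZR1). RRM2B is induced after DNA damage and supplies dNTPs outside S phase, among others for mitochondrial DNA.

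In GENCODE 29 (GRCh38), RRM1 lies on chromosome 11 at chr11:4094707-4138876 on the plus strand and RRM2 at chr2:10120698-10131419, also on the plus strand. Both are annotated as protein coding. RRM1 begins 1496 bases after the end of STIM1, the siRNA target, on the same strand. The stretch before the start of RRM1 is shown because RRM1 and RRM2 were both lower with thapsigargin in each of the 3 settings described further on. It is the 250 bases before the RefSeq start (GRCh38.p14, chr11:4094435-4094684, plus strand), with the single CCAAT match in capitals.
RRM1: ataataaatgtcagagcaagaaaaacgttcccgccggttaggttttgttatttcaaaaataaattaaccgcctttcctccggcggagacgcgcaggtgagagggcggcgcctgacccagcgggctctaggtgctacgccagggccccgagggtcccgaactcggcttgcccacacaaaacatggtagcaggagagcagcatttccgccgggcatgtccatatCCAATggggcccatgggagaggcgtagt
The same window of RRM2, at the more downstream of its 2 RefSeq starts, held 3 CCAAT matches, whose first bases lay 123, 93 and 66 bases before that start. They are shown with 10 bases on either side, from chr2:10122606-10122630, chr2:10122636-10122660 and chr2:10122663-10122687 on the plus strand, and lie in exons of other RRM2 transcripts in GENCODE 29.
RRM2 first match: caaggcgcagCCAATgggaagggtc
RRM2 second match: catggcacagCCAATgggaagggcc
RRM2 last match: ggcaccaaagCCAATgggaagggcc
Of 35116 RefSeq windows of 250 bases, 32.0% held CCAAT on either strand and 2.93% held at least 3 matches. Whether CCAAT matches bear on the lower levels with thapsigargin was not tested. The overlapping window at the other RRM2 start held 1 CCAAT match. None of these 3 windows held TTTCCCGC, TTTCGCGC, TTTGCCGC or TTTGGCGC, spellings of an E2F site searched on both strands, which 2.79% of the windows held.

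A library held 8922439 to 16519239 reads, recovered from the deposited values, and the 3 genes had between 266 (RRM2B) and 67824 (RRM1) reads in a library. Values after ± are standard deviations (n = 3) for levels and limma's standard errors for log2 fold changes. Unless another test is named, each adjusted p is from limma's two-sided test over all 13096 genes, and a call means one under 0.05. The labels give replicate numbers without saying whether the replicates were separate cultures, so the p-values measure only the spread between these libraries, which may be technical. All 5 epithelial markers were present in each group, CDH1 being the lowest with group means of 83.9 to 534 normalized counts. The fibroblast marker DCN was at 0 in every library, and LUM and PDGFRB had group means of at most 0.315 and 0.920. COL1A1, also a fibroblast marker, reached group means of 1059 to 3022. Of the leukocyte markers, PTPRC, CD3E and LYZ had group means of at most 2.04, and CD68 had 101 to 168. Of the endothelial markers, VWF had group means of at most 6.70, PECAM1 had 61.4 to 150.3 and CDH5 had 32.8 to 147. In such bulk samples, fewer cells of a type and less RNA per cell cannot be told apart. Replicate 1 of GemR siCont with vehicle and replicate 1 of GemR siSTIM1 with thapsigargin had the most negative length trends. In them the deviation of a gene from its group mean fell with transcript length (Spearman rho of -0.61 and -0.53 over 12419 genes), against -0.35 to 0.56 in the other 16 libraries. These 2 were also the lowest libraries of their groups for RRM2B, which has the longest transcript of the 3, so results on the 3 genes that use them are given with and without them, and those on the other genes where leaving them out changes a call. The deviations in a group sum to 0, so a fall in 1 library comes with a rise in others. The value of 0.56 was that of GemR siCont vehicle replicate 3. The trend alone therefore cannot tell which library of a group is unusual.

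RRM1 was among the most abundant messages of GemR cells. It had 46925, 53065 and 50074 normalized counts in GemR siSTIM1 with thapsigargin, 59323, 58788 and 55241 in GemR siSTIM1 with vehicle, 42691, 44102 and 44579.5 in GemR siCont with thapsigargin, and 55344, 50841 and 53625 in GemR siCont with vehicle. Par libraries had 2717, 2551 and 2588 with thapsigargin and 3011, 2868 and 3059.5 with vehicle. Every GemR library was above every Par library. By group mean, RRM1 ranked 3rd, 1st, 9th and 3rd of all genes in those 4 GemR groups, and 1176th and 878th in the 2 Par groups. It took 0.406 ± 0.0134% of the counts of a library in GemR siCont with vehicle, against 0.0227 ± 0.000895% in Par with vehicle. In the order of group means, from 57784 in GemR siSTIM1 with vehicle to 2619 in Par with thapsigargin, the first and second group overlapped, as did the second and the one after it.

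RRM2 moved within a narrower range and in another order. Its normalized counts were 2512, 2880.0 and 2634 in GemR siSTIM1 with thapsigargin, 3272, 3598 and 3261 in GemR siSTIM1 with vehicle, 1865, 1919 and 1855 in GemR siCont with thapsigargin, and 2273, 2197 and 2207 in GemR siCont with vehicle. Par libraries had 2252, 2338 and 2306 with thapsigargin and 3096, 2923 and 2929.8 with vehicle. The GemR siSTIM1 vehicle libraries were the highest and the GemR siCont thapsigargin libraries the lowest. Only Par with thapsigargin and GemR siCont with vehicle overlapped among neighbours in the order of means. Reads from the RRM2 pseudogenes RRM2P2, RRM2P3 and RRM2P4, which are copies of its message, may be counted with RRM2 or lost from it, so its level is uncertain to that extent. The library kit does not mark strand, so reads of RRM1-AS1, an antisense gene inside the end of RRM1, cannot be told apart from those of RRM1.

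RRM2B, a protein-coding gene at chr8:102204502-102239118 on the minus strand, was the least abundant of the 3. It had 263, 413 and 344 normalized counts in GemR siSTIM1 with thapsigargin, 449, 391 and 372 in GemR siSTIM1 with vehicle, 734, 689 and 778 in GemR siCont with thapsigargin, and 586, 713 and 710.3 in GemR siCont with vehicle. Par libraries had 858, 900.0 and 917 with thapsigargin and 709, 662 and 731 with vehicle. The 6 siSTIM1 libraries were below the 12 others, and the 3 Par thapsigargin libraries were above all others. The 2 siSTIM1 groups overlapped each other. GemR siCont with thapsigargin overlapped Par with vehicle in the order of means, and Par with vehicle overlapped GemR siCont with vehicle.

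**Figure D1:**
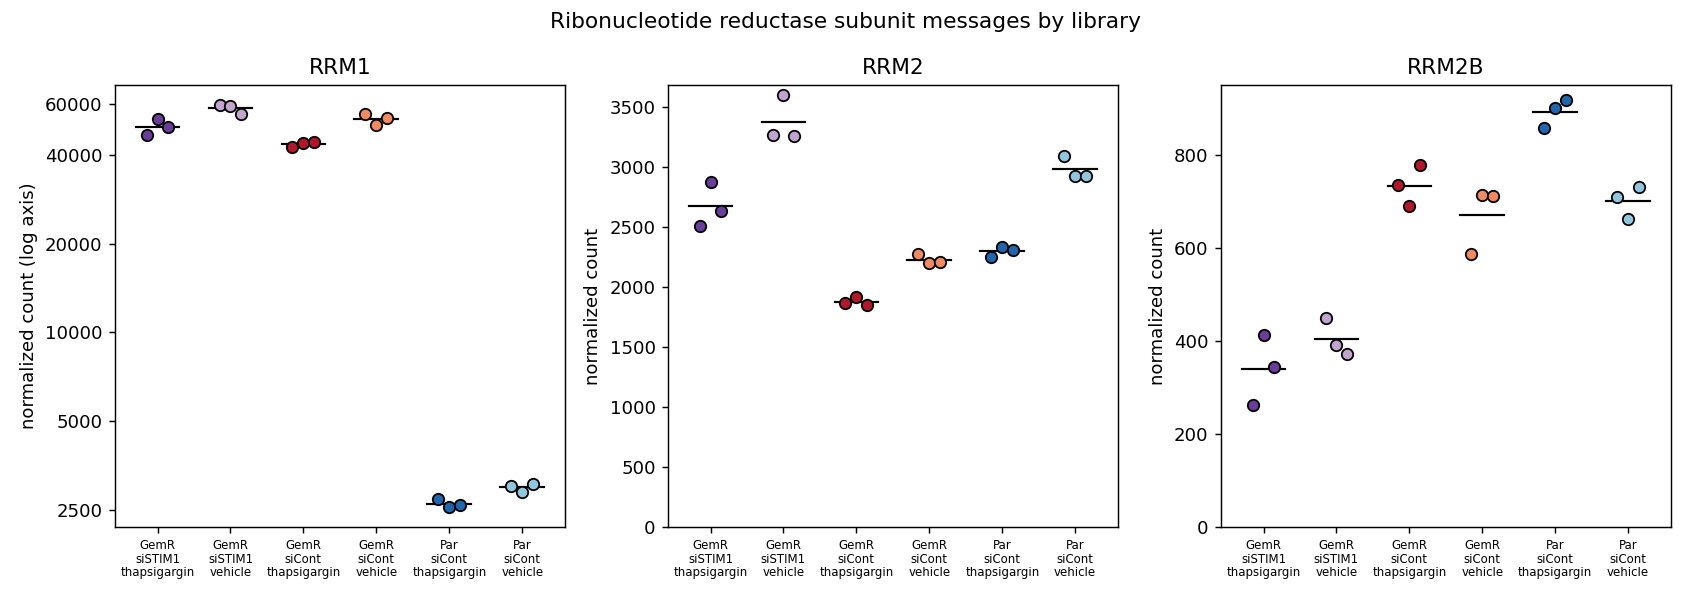
Normalized counts of RRM1 (log axis), RRM2 and RRM2B (linear axes) in each of the 18 libraries, by group; points are libraries and bars are means of 3. RRM1 splits GemR from Par, RRM2 is highest in siSTIM1 with vehicle, and RRM2B is lowest in the siSTIM1 groups.

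Divided by transcript length (3.076 kb for RRM1, 3.431 kb for RRM2 and 4.931 kb for RRM2B), the levels of the 3 genes can be set side by side. In GemR siSTIM1 with vehicle they were 18785 ± 721 normalized counts per kb for RRM1, 984 ± 55.8 for RRM2 and 82.0 ± 8.14 for RRM2B. In GemR siCont with vehicle the levels per kb were 17318 ± 739 for RRM1, 649 ± 11.9 for RRM2 and 136 ± 14.7 for RRM2B. In Par with vehicle they were 969 ± 32.4 for RRM1, 869 ± 28.6 for RRM2 and 142 ± 7.18 for RRM2B. Per kb, the message of the large subunit thus far exceeded those of both small subunits in GemR, while in Par it was near that of RRM2.

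GemR was set against Par to learn which subunits differed between the lines. With vehicle, RRM1 was 17.9-fold higher in GemR siCont (log2 fold change 4.16 ± 0.06, adjusted p = 2.4e-20), RRM2 was 25.4% lower (-0.42 ± 0.06, adjusted p = 1.7e-05) and RRM2B was not called (-0.07 ± 0.12, adjusted p = 0.688). In this comparison 38.2% of all genes tested were called, 18.1% higher and 20.1% lower. With thapsigargin in both lines, where 48.2% of genes were called (23.2% higher and 25.0% lower), RRM1 was 16.7-fold higher in GemR siCont (4.06 ± 0.06, adjusted p = 3.8e-20) and RRM2 was 18.2% lower (-0.29 ± 0.06, adjusted p = 5.5e-04). RRM2B had no overlap between the groups but missed the threshold (-0.28 ± 0.12, adjusted p = 0.0649). It passed in a fit of the compared libraries alone (adjusted p = 3.4e-04) and with DESeq2 on recovered reads (adjusted p = 0.0483). Without GemR siCont vehicle replicate 1, the RRM2B log2 fold change with vehicle was 0.02 (adjusted p = 0.901). With both length-trend libraries left out, the vehicle values were 4.13 for RRM1 (adjusted p = 4.6e-30), -0.44 for RRM2 (adjusted p = 2.5e-07) and 0.02 for RRM2B (adjusted p = 0.852).

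Thapsigargin was applied to learn how emptying the calcium store changes expression. RRM1 and RRM2 were lower with thapsigargin in all 3 settings. RRM1 fell by 12.1% in Par (log2 fold change -0.19 ± 0.06, adjusted p = 0.0159), by 17.8% in GemR siCont (-0.28 ± 0.06, adjusted p = 8.9e-04) and by 13.5% in GemR siSTIM1 (-0.21 ± 0.06, adjusted p = 0.0119). RRM2 fell by 22.9% in Par (-0.38 ± 0.06, adjusted p = 5.3e-05), by 15.5% in GemR siCont (-0.24 ± 0.06, adjusted p = 0.00372) and by 20.8% in GemR siSTIM1 (-0.34 ± 0.06, adjusted p = 2.8e-04). In each of these 6 comparisons all 3 thapsigargin libraries were below all 3 vehicle libraries. How many of all genes separated in this way was not counted. Of all genes tested, thapsigargin changed 40.1% in Par (19.7% lower), 33.6% in GemR siCont (15.8% lower) and 24.3% in GemR siSTIM1 (11.9% lower). With quantile-normalized values the RRM1 values were -0.30, -0.47 and -0.31 in these settings, all called. The RRM1 calls in Par (adjusted p = 0.0655) and GemR siSTIM1 (0.0574) were lost with no filter on low values, and that in GemR siSTIM1 also in a fit of the compared libraries alone (0.0543). The RRM1 call in Par was lost when vehicle replicate 1 (adjusted p = 0.0517), vehicle replicate 3 (0.0620), thapsigargin replicate 2 (0.0638) or thapsigargin replicate 3 (0.0521) was left out. The RRM1 call in GemR siSTIM1 was lost without vehicle replicate 1 (adjusted p = 0.0566) or thapsigargin replicate 1 (0.0646). Omitting both length-trend libraries gave -0.25 for RRM1 in GemR siCont (adjusted p = 1.3e-04) and -0.16 in GemR siSTIM1 (adjusted p = 0.0112), and -0.23 (adjusted p = 0.00159) and -0.29 (adjusted p = 1.3e-04) for RRM2.

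RRM2B was higher with thapsigargin in Par, by 27.3% (log2 fold change 0.35 ± 0.12, adjusted p = 0.0297), where 20.5% of all genes were called higher, with 17.9% in GemR siCont and 12.5% in GemR siSTIM1. This call was lost without any one of 5 of the 6 libraries compared: vehicle replicate 1 (adjusted p = 0.0623) or 2 (0.0990), and thapsigargin replicate 1 (0.0508), 2 (0.0712) or 3 (0.0822). In GemR siCont the groups overlapped and RRM2B was not called (0.14 ± 0.12, adjusted p = 0.419), with 0.04 (adjusted p = 0.753) when the 2 libraries with the length trend were left out. In GemR siSTIM1 they overlapped too, with a log2 fold change of -0.27 ± 0.12 (adjusted p = 0.126). That value was -0.10 (adjusted p = 0.450) without the 2 libraries with the length trend, and -0.42 (adjusted p = 0.0127) without thapsigargin replicate 2.

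No difference between thapsigargin responses was called for the 3 genes. Over all genes, 14.8% were called between GemR siCont and Par (7.14% higher and 7.66% lower), and 4.41% between GemR siSTIM1 and GemR siCont (1.50% higher and 2.90% lower). The GemR siCont response minus the Par response was -0.10 ± 0.08 for RRM1 (adjusted p = 0.515, 95% interval -0.27 to 0.08), 0.13 ± 0.08 for RRM2 (adjusted p = 0.354, -0.05 to 0.31) and -0.21 ± 0.17 for RRM2B (adjusted p = 0.486, -0.58 to 0.15). With the 2 libraries with the length trend left out, the RRM2B difference was -0.31 (adjusted p = 0.0463), that of RRM1 -0.07 (0.470) and that of RRM2 0.15 (0.141). The response in GemR siSTIM1 minus that in GemR siCont was 0.07 ± 0.08 for RRM1 (adjusted p = 0.631, -0.10 to 0.25), -0.09 ± 0.08 for RRM2 (adjusted p = 0.541, -0.27 to 0.08) and -0.40 ± 0.17 for RRM2B (adjusted p = 0.198, -0.77 to -0.04). The last was -0.14 (adjusted p = 0.630) without those 2 libraries, where RRM1 had 0.09 (0.570) and RRM2 had -0.06 (0.759).

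With siSTIM1 in GemR the messages of the small subunits differed from siCont in opposite directions. No group had another siRNA against STIM1 or STIM1 restored, so loss of STIM1 cannot be told apart from other effects of the siRNA. The target itself had 309.8 ± 40.8 normalized counts in siSTIM1 with thapsigargin, against 6187 ± 115 in siCont with thapsigargin. It had 382 ± 23.7 in siSTIM1 with vehicle, against 5890.4 ± 793 in siCont with vehicle. RRM2 was 1.52-fold higher with siSTIM1 under vehicle (log2 fold change 0.60 ± 0.06, adjusted p = 3.3e-07) and 1.42-fold higher under thapsigargin (0.51 ± 0.06, adjusted p = 2.0e-06). RRM2B was 39.5% lower with siSTIM1 under vehicle (-0.72 ± 0.12, adjusted p = 1.4e-04) and 54.3% lower under thapsigargin (-1.13 ± 0.12, adjusted p = 7.0e-07). In all 4 comparisons the 3 siSTIM1 libraries did not overlap the 3 siCont libraries. The share of all genes without such overlap was not counted. Of all genes, siSTIM1 changed 42.0% under vehicle (20.9% higher and 21.1% lower) and 36.6% under thapsigargin (17.7% higher and 18.9% lower). Without the 2 libraries with the length trend, the RRM2B values were -0.82 under vehicle (adjusted p = 1.7e-08) and -0.96 under thapsigargin (adjusted p = 5.9e-10), and the RRM2 values were 0.61 (adjusted p = 8.8e-10) and 0.55 (adjusted p = 4.2e-09).

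RRM1, the neighbour of STIM1, was called with siSTIM1 under thapsigargin alone. Under thapsigargin it was 14.1% higher (log2 fold change 0.19 ± 0.06, adjusted p = 0.0155), and this call was lost without siCont thapsigargin replicate 1 (adjusted p = 0.0631) or siSTIM1 thapsigargin replicate 2 (0.0875), and with no filter on low values (0.0643). With quantile-normalized values it was 0.47 (adjusted p = 2.8e-05), and without the 2 libraries with the length trend 0.24 (adjusted p = 2.6e-04). Under vehicle the groups overlapped and RRM1 was not called (0.12 ± 0.06, adjusted p = 0.114, 95% interval -0.01 to 0.24). It was called there with quantile-normalized values (0.31, adjusted p = 0.00159), with DESeq2 (0.15, adjusted p = 0.0452) and without the 2 libraries with the length trend (0.15, adjusted p = 0.0187).

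**Figure D2:**
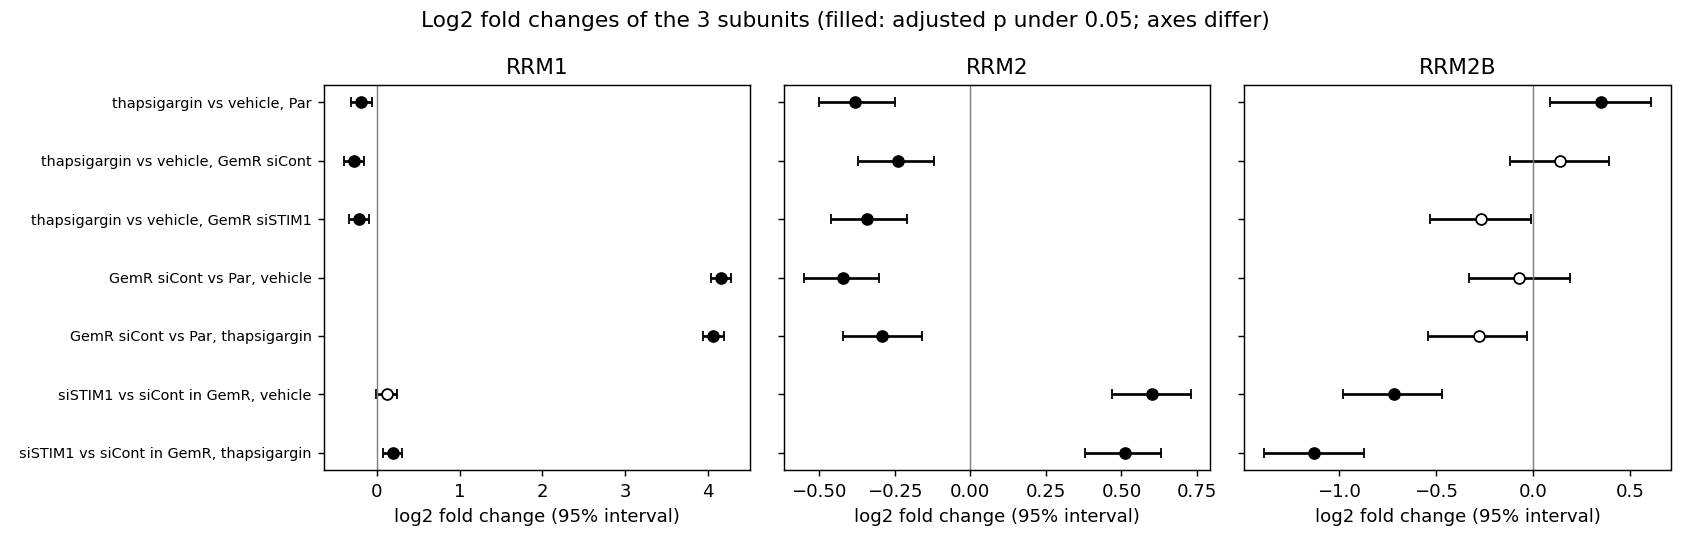
Log2 fold changes of RRM1, RRM2 and RRM2B with 95% intervals from limma in 7 comparisons; filled points passed an adjusted p under 0.05 and the axes differ between genes. RRM1 stands at 4.16 and 4.06 for GemR against Par, and siSTIM1 raised RRM2 and lowered RRM2B.

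Set against Par, the GemR siSTIM1 groups differ in both the line and the siRNA. With vehicle, where 24.2% of all genes were called higher and 26.3% lower, RRM1 was 19.4-fold higher in GemR siSTIM1 (adjusted p = 1.4e-20), RRM2 was 13.1% higher (0.18 ± 0.06, adjusted p = 0.0188) and RRM2B was 42.4% lower (-0.79 ± 0.12, adjusted p = 2.5e-05). The RRM2 call was lost without Par vehicle replicate 2 (adjusted p = 0.0619), Par vehicle replicate 3 (0.0593) or siSTIM1 vehicle replicate 2 (0.109). With thapsigargin, where 24.7% were called higher and 28.3% lower, RRM1 was 19.1-fold higher in GemR siSTIM1 (adjusted p = 1.6e-20), RRM2 was 16.2% higher (0.22 ± 0.06, adjusted p = 0.00516) and RRM2B was 62.4% lower (-1.41 ± 0.12, adjusted p = 1.5e-08). Those log2 values were 4.30 for RRM1 (adjusted p = 1.6e-30), 0.26 for RRM2 (adjusted p = 2.2e-04) and -1.24 for RRM2B (adjusted p = 1.5e-12) without the 2 libraries with the length trend. In these 2 comparisons RRM2 was higher in GemR, whereas it was lower in GemR with siCont. The comparisons share libraries, since each GemR group and each Par group enters several of them, and are not independent of one another. The authors' deposited table of GemR siSTIM1 with thapsigargin against Par with vehicle lists a log2 fold change of -0.16 for RRM2 (adjusted p = 0.0222) and of -1.04 for RRM2B (adjusted p = 3.1e-15). The authors' deposited table of GemR siCont with thapsigargin against Par with vehicle lists -0.67 for RRM2 (adjusted p = 3.5e-26) and 0.06 for RRM2B (adjusted p = 0.733). Treatment differs as well in these 2, unlike in the comparisons above. The authors' DESeq2 comparisons of thapsigargin with vehicle list RRM1 at -0.19 in Par (adjusted p = 0.00722), -0.28 in GemR siCont (3.4e-06) and -0.21 in GemR siSTIM1 (0.00130). In the same order RRM2 had -0.38 (7.3e-09), -0.24 (5.0e-04) and -0.34 (2.9e-07), and RRM2B had 0.35 (0.0175), 0.13 (0.465) and -0.24 (0.179).

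The balance of the subunit messages was measured as ratios of normalized counts within each library, which do not depend on the size factors. The ratio of RRM1 to RRM2 averaged 18.7 ± 0.292 in GemR siSTIM1 with thapsigargin, 17.1 ± 0.913 in GemR siSTIM1 with vehicle, 23.3 ± 0.638 in GemR siCont with thapsigargin and 23.9 ± 0.684 in GemR siCont with vehicle. In Par it averaged 1.14 ± 0.0597 with thapsigargin and 0.999 ± 0.0392 with vehicle. No GemR library overlapped a Par library, and the siSTIM1 libraries lay below the siCont libraries of GemR. The ratio of RRM2 to RRM2B averaged 8.06 ± 1.34 in GemR siSTIM1 with thapsigargin, 8.41 ± 1.00 in GemR siSTIM1 with vehicle, 2.57 ± 0.203 in GemR siCont with thapsigargin and 3.36 ± 0.453 in GemR siCont with vehicle. In Par it averaged 2.58 ± 0.0570 with thapsigargin and 4.26 ± 0.225 with vehicle. The 6 siSTIM1 libraries had the highest ratios of RRM2 to RRM2B of all 18.

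These ratios were compared by 6 two-sided exact permutation tests, with libraries exchanged only within the strata compared and p-values adjusted over the 6. The log2 ratio of RRM1 to RRM2 was 4.47 higher in GemR siCont than in Par (exact p = 0.00500, the smallest that 400 rearrangements can give, adjusted p = 0.00750) and lower with siSTIM1 in GemR (-0.40, exact p = 0.00500, also the smallest, adjusted p = 0.00750). The log2 ratio of RRM2 to RRM2B was higher with siSTIM1 (1.48, exact p = 0.00500, the smallest possible, adjusted p = 0.00750), with 1.32 under vehicle and 1.64 under thapsigargin. It was lower with thapsigargin (-0.39, exact p = 0.00400, adjusted p = 0.00750), with -0.72 in Par, -0.38 in GemR siCont, and -0.07 with siSTIM1 in GemR. Between GemR siCont and Par it differed by -0.18 (exact p = 0.0800, adjusted p = 0.0800), and by -0.21 without GemR siCont thapsigargin replicate 2 (exact p = 0.0150). The log2 ratio of RRM1 to RRM2 was 0.09 higher with thapsigargin (exact p = 0.0213, adjusted p = 0.0256), but its strata differed in sign, at 0.19 in Par, -0.04 in GemR siCont, and 0.13 with siSTIM1 in GemR. With medians in place of means the exact p of that comparison was 0.142. Without the 2 libraries with the length trend, the log2 ratio of RRM1 to RRM2 differed by 4.46 between GemR siCont and Par (exact p = 0.00500), by 0.10 with thapsigargin (exact p = 0.0235) and by -0.39 with siSTIM1 (exact p = 0.01), unadjusted. That of RRM2 to RRM2B differed by -0.23 (exact p = 0.0550), -0.40 (exact p = 0.00200) and 1.47 (exact p = 0.01) in the same comparisons.

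**Figure D3:**
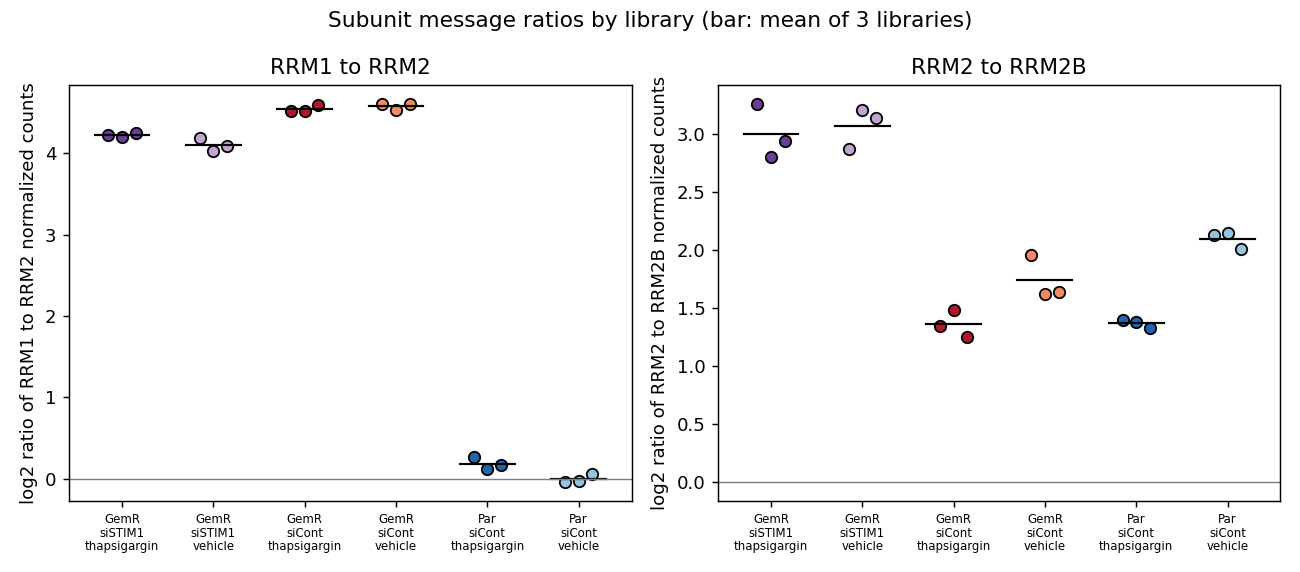
Log2 ratios of RRM1 to RRM2 and of RRM2 to RRM2B normalized counts in each library, by group; bars are means of 3. The RRM1 to RRM2 ratio is above 4 in GemR and near 0 in Par, and the RRM2 to RRM2B ratio is highest in the siSTIM1 groups.

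Across the 18 libraries the log2 levels of the 3 genes were not alike: Pearson's r was -0.07 between RRM1 and RRM2, -0.60 between RRM1 and RRM2B and -0.52 between RRM2 and RRM2B. These values describe 18 libraries that share 6 group means. Among 10941 genes with a mean of at least 50, the profile most like that of RRM1 was that of TRIM68 (r = 0.997), followed by PTGES (0.996), TRIM21 (0.994), APBB1 (0.993) and AKIP1 (0.992). All of them but PTGES, which lies on chromosome 9, lie on chromosome 11, where 5.88% of the candidates with a position lie. Their centred log2 profiles differed from that of RRM1 by a root mean square of 0.59 to 1.02. For RRM2 the genes were HNRNPU (r = 0.967), DEPDC1B (0.952), SLC1A3 (0.947), DHX30 (0.936) and STARD7 (0.935). For RRM2B they were PDE3A (r = 0.981), DSC3 (0.979), ICK (0.975), CASC4 (0.973) and AP4E1 (0.963). PDE3A, a phosphodiesterase, averaged 1007 ± 121 normalized counts in siSTIM1 with thapsigargin, against 3039 ± 145 in siCont with thapsigargin.

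The neighbours of RRM1 on chromosome 11 were also measured. STIM1 was 3.68 ± 0.10 higher on the log2 scale in GemR siCont than in Par with vehicle (adjusted p = 5.1e-16), and TRIM68 (2.74) and TRIM21 (2.69) were called higher too. In the same comparison NUP98, a nucleoporin gene, was lower (-0.78 ± 0.12, adjusted p = 3.1e-05), as were RHOG (-0.63) and PGAP2 (-0.44). Of the 14 flanking genes listed, 8 were tested, 3 of them called higher and 4 lower, where 18.1% of all genes were called higher and 20.1% lower.

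Genes that copy DNA in S phase, among which RRM2 peaks, were mostly lower with thapsigargin. Of 39 tested, 28 fell in Par, 35 in GemR siCont, and 31 with siSTIM1 in GemR, and 1 rose in each setting, where 19.7%, 15.8% and 11.9% of all genes fell. The median log2 fold changes of the list were -0.41, -0.52 and -0.38, against -0.02, -0.03 and -0.01 for all genes. MCM2, a helicase subunit, fell by 0.54 on the log2 scale in Par, by 0.52 in GemR siCont, and by 0.49 with siSTIM1 in GemR. The DNA clamp PCNA fell by 0.76, 0.57 and 0.31 in the same order. Its call in GemR siSTIM1 was lost without any single library of that comparison (adjusted p of 0.0629 to 0.119), and its value in GemR siCont was -0.37 without vehicle replicate 1. In GemR siSTIM1 PCNA had -0.33 without the 2 libraries with the length trend (adjusted p = 5.6e-05). The gene that rose was CDC6, which loads that helicase (1.33, 0.39 and 0.64). Without the 2 libraries with the length trend, 29, 35 and 33 fell. Calls over all genes, in either direction, then numbered 6890, 4655 and 3817, in place of 5253, 4402 and 3187.

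Of 23 regulators of E2F activity and of RRM2 turnover, thapsigargin lowered 15 in Par, 14 in GemR siCont, and 13 with siSTIM1 in GemR, where 19.7%, 15.8% and 11.9% of all genes fell. It raised 3, 3 and 0 of them. CCNF, whose product marks RRM2 for destruction, had log2 fold changes of -1.21, -1.66 and -1.15, all called. Without the 2 libraries with the length trend, 16, 14 and 13 fell and 4, 3 and 2 rose. The calls over all genes in that setting are given above. E2F1, an activator, fell by 0.67, 0.71 and 0.42, and E2F8, a repressor, fell by 1.46, 0.66 and 1.03. E2F7, another repressor, rose in Par (1.83) and in GemR siCont (1.07), while its value in GemR siSTIM1 was 0.37 (adjusted p = 0.0930), and 0.58 without thapsigargin replicate 1 (adjusted p = 0.00610), without which 2 of the 23 rose there. FZR1 was lower in Par (-0.25, adjusted p = 0.00780), with 0.11 in GemR siCont (adjusted p = 0.243) and 0.00 in GemR siSTIM1 (adjusted p = 0.998).

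With siSTIM1, under which RRM2 was higher, these lists were split, and their shares, but for the S phase genes that fell under vehicle, lay near those of all genes (20.9% higher and 21.1% lower under vehicle, 17.7% and 18.9% under thapsigargin). Of the 39 S phase genes, 7 rose and 18 fell under vehicle, and 9 rose and 8 fell under thapsigargin. Without the 2 libraries with the length trend, 6 rose and 14 fell under vehicle, and 13 rose and 10 fell under thapsigargin. Over all genes, 5272 were then called in either direction under vehicle and 6046 under thapsigargin, in place of 5496 and 4796. The 7 became 4 without siCont vehicle replicate 1 and 2 without siSTIM1 vehicle replicate 1. Of the 23 regulators, 5 rose and 4 fell under vehicle, and 5 rose and 6 fell under thapsigargin, against 5 and 5, and 7 and 6, without the 2 libraries with the length trend. E2F1 was higher with siSTIM1 under both vehicle (0.35 ± 0.08, adjusted p = 0.00129) and thapsigargin (0.64 ± 0.08, adjusted p = 2.1e-06). E2F3, another activator, was higher by 0.92 under vehicle and 0.80 under thapsigargin. The repressor E2F8 was higher under vehicle (0.69, adjusted p = 0.00478). It had 0.31 under thapsigargin (adjusted p = 0.183), and 0.51 without the 2 libraries with the length trend (adjusted p = 0.00597). The repressor E2F7 had 0.10 under vehicle (adjusted p = 0.610) and was lower under thapsigargin (-0.59, adjusted p = 0.00546). CCNF was higher under thapsigargin (0.59 ± 0.11, adjusted p = 3.2e-04), and had 0.08 under vehicle (adjusted p = 0.598).

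Enzymes that supply nucleotides beside ribonucleotide reductase were mostly lower or not called with siSTIM1. Of 29, 18 fell and 1 rose under vehicle, where 21.1% of all genes fell. The thymidylate kinase DTYMK had 909.8 ± 49.2 normalized counts in siSTIM1, against 1666 ± 321 in siCont, and thymidine kinase TK1 had 5167 ± 176 in siSTIM1, against 8015 ± 989.9 in siCont. Thymidylate synthase TYMS fell by 0.32 on the log2 scale (adjusted p = 0.00246). DCK, the kinase that activates gemcitabine, was not called (0.19 ± 0.10). With the 2 length-trend libraries left out, 15 fell. Calls over all genes, in either direction, were 5272 there, and 4264 to 6081 with 1 library left out, in place of 5496. The 1 that rose was not called without siCont vehicle replicate 1 or any single siSTIM1 vehicle library. Under thapsigargin 12 fell and 1 rose, where 18.9% of all genes fell. The 12 became 6 without siCont thapsigargin replicate 1 or 2, and 4 without siSTIM1 thapsigargin replicate 3. Also 12 fell without the 2 libraries with the length trend. Calls over all genes, in either direction, were 6046 there, and 3908 to 4561 with 1 library left out, in place of 4796.

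With thapsigargin the same 29 enzymes included 12 that fell and 1 that rose in Par, 13 that fell in GemR siCont and 8 that fell in GemR siSTIM1, where 19.7%, 15.8% and 11.9% of all genes fell. UMPS, which makes uridine monophosphate, fell by 0.46, 0.81 and 0.53 on the log2 scale. Without the 2 libraries with the length trend 19, 11 and 7 fell. Calls over all genes, in either direction, changed too, from 5253, 4402 and 3187 to 6890, 4655 and 3817. The 13 became 8 without GemR siCont thapsigargin replicate 3. The 8 became 5 without siSTIM1 vehicle replicate 3 or thapsigargin replicate 3, and 4 without thapsigargin replicate 1. With 1 library left out, calls over all genes were 3515 to 5049 in GemR siCont and 2573 to 2929 in GemR siSTIM1. Between GemR siCont and Par with vehicle, 6 rose and 2 fell, where 18.1% of all genes rose and 20.1% fell. Among them were dUTPase DUT (0.57 ± 0.09, adjusted p = 5.6e-05), which was higher, and CTP synthase CTPS1 (-0.49 ± 0.06, adjusted p = 1.5e-06), which was lower. The 6 became 2 without Par vehicle replicate 1, and 3 without Par vehicle replicate 3 or GemR siCont vehicle replicate 1; the 2 became 4 without the last of these. With the 2 length-trend libraries left out, 4 rose and 5 fell. Calls over all genes, in either direction, were 5573 there, and 4068 to 5235 with 1 library left out, in place of 5000.

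Among 13 tested enzymes that remove nucleotides, siSTIM1 raised 2 and lowered 4 under vehicle (3 and 5 without the 2 libraries with the length trend), a share near that of all genes, of which 42.0% were called. Adenosine deaminase ADA had 96.8 ± 8.21 normalized counts in siSTIM1, against 242 ± 49.6 in siCont, and the dCTP pyrophosphatase DCTPP1 had 1723 ± 110.4 in siSTIM1, against 2911 ± 549 in siCont. The 4 became 7 without siCont vehicle replicate 3. SAMHD1, which degrades dNTPs, had 0.30 ± 0.14 on the log2 scale (adjusted p = 0.0827), and 0.47 without siCont vehicle replicate 3 (adjusted p = 0.00654). The electron donors of the enzyme held 7 tested genes. With siSTIM1 under vehicle none of the 7 rose and 3 fell, where 20.9% of all genes rose and 21.1% fell. Of the 7, 1 fell without siCont vehicle replicate 1, siSTIM1 vehicle replicate 1 or 3, or the 2 libraries with the length trend. Thioredoxin TXN had -0.37 ± 0.13 (adjusted p = 0.0248), with overlapping groups. This call was lost without siCont vehicle replicate 1 (-0.17, adjusted p = 0.149), siSTIM1 vehicle replicate 1 (0.0822), siSTIM1 vehicle replicate 3 (0.113) or the 2 libraries with the length trend (0.0706). Thioredoxin reductase TXNRD1 was 0.88 ± 0.09 higher with thapsigargin in Par (adjusted p = 1.1e-07), 0.24 higher in GemR siCont (adjusted p = 0.0418) and 0.40 higher in GemR siSTIM1 (adjusted p = 0.00151). The call in GemR siCont was lost without any single library of that comparison but vehicle replicate 3 (adjusted p of 0.0726 to 0.129), and without the 2 libraries with the length trend (0.17, adjusted p = 0.0550).

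Since RRM2B is a gene of the DNA damage response, 5 other genes of that response were set beside it. MDM2, a ubiquitin ligase, had 333 ± 49.9 normalized counts in siSTIM1 with thapsigargin, against 825 ± 60.9 in siCont with thapsigargin, and was also lower with siSTIM1 under vehicle (-0.79 ± 0.10 on the log2 scale, adjusted p = 6.5e-06). The repair gene DDB2 was lower with siSTIM1 under vehicle (-0.86) and under thapsigargin (-1.06), while XPC, another repair gene, was higher under vehicle (0.81). CDKN1A, the cell cycle inhibitor p21, had 0.00 ± 0.14 under vehicle (adjusted p = 0.985) and was lower under thapsigargin (-0.77 ± 0.14, adjusted p = 1.9e-04). SESN1, a sestrin, had 0.06 ± 0.15 under vehicle (adjusted p = 0.765) and -0.24 ± 0.15 under thapsigargin (adjusted p = 0.217).

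Thapsigargin raised CDKN1A in all 3 settings, by 1.77 on the log2 scale in Par, 2.32 in GemR siCont, and 1.56 with siSTIM1 in GemR. MDM2 was higher in Par (0.34, adjusted p = 0.0118) and in GemR siCont (0.55, adjusted p = 2.7e-04), and had 0.02 in GemR siSTIM1 (adjusted p = 0.924). Its call in Par was lost without vehicle replicate 1 (adjusted p = 0.0520) or thapsigargin replicate 1 (0.0526). SESN1 had -0.22 in Par (adjusted p = 0.250) and was lower in GemR siCont (-0.39, adjusted p = 0.0480) and in GemR siSTIM1 (-0.69, adjusted p = 0.00151), the call in GemR siCont being lost without any single library (adjusted p of 0.0552 to 0.148). RRM2B was called higher in Par alone, and its value in GemR siSTIM1 was -0.27 (adjusted p = 0.126).

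**Figure D4:**
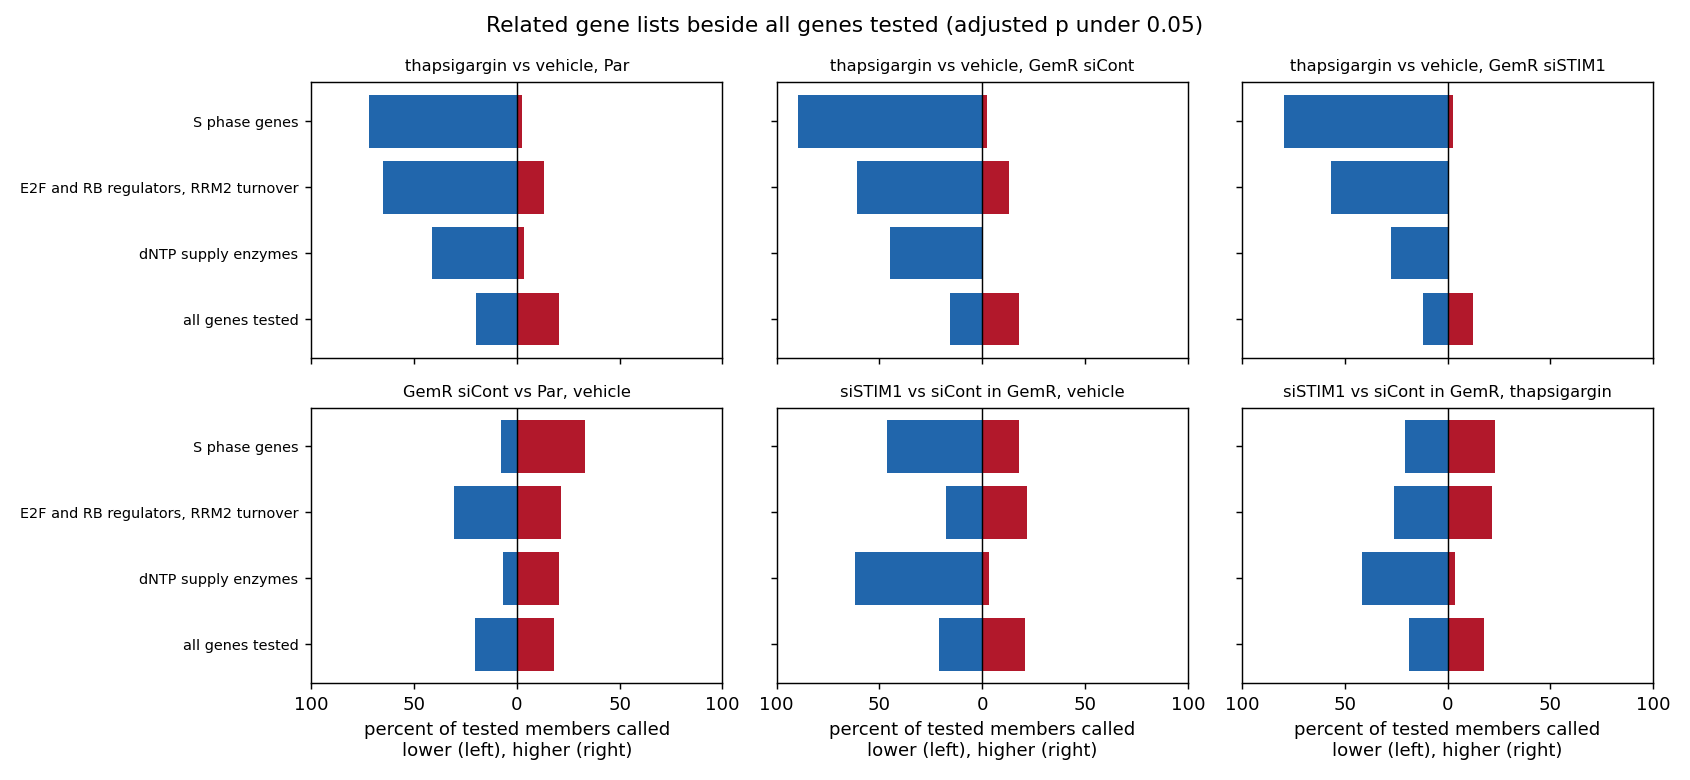
Percent of the tested members of 3 gene lists, and of all genes tested, called lower (blue, left) or higher (red, right) in 6 comparisons at an adjusted p under 0.05. Thapsigargin lowered 28, 35 and 31 of 39 S phase genes, and siSTIM1 with vehicle lowered 18 of 29 dNTP supply enzymes.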

How the data were processed

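Per the labels' protocols, the TruSeq RNA Library Prep Kit v2 was used on 500 ng of QIAzol-extracted RNA. The submitters' processing notes name hg38, STAR 2.6.0c, HTSeq 0.11.1 and DESeq2. For the annotation and filters, the sources used here give nothing. The authors deposited 1 table of normalized counts, treated as a signal: each library's read counts over its own size factor, since values in a column were multiples of 1 step, whole within 0.01. The authors also deposited 5 comparison tables, whose columns include a log2 fold change and a p-value adjusted over genes, per the file headers.

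The 13096 genes averaging 10 or more were put on the scale log2(normalized count + 1). In R 4.3.3, limma 3.58.1 with a trend fitted 1 mean per group to the 18 libraries, which leaves 12 residual degrees of freedom. P-values of 11 comparisons, 2 of them differences between responses, were adjusted by Benjamini and Hochberg over all genes of each comparison. Fold changes are on the log2(value + 1) scale. Ratios were compared by exact permutation within strata. The fit was tested on simulated data. The 3 genes, the 7 gene lists and the tests were chosen with earlier results of these data known. The results of 1 list are not reported here. Named genes were the 3 members, STIM1, a fixed set of related genes, the 5 genes most correlated with each member among those averaging 50 or more, and per list and comparison the largest changes among its called genes (at most 3). Not all of them are named. Transcript lengths came from GENCODE 29. Alternatives were pseudocounts of 0.5 and 5, a filter at 50 or none, quantile normalization or median centring, limma with a robust prior or no trend, a replicate block, fits of the compared libraries alone, omission of each library and of the 2 with a length trend, and, on whole reads recovered from the steps, DESeq2 1.42.0 and edgeR 4.0.16's quasi-likelihood test. The step of GemR siSTIM1 vehicle replicate 3 was 0.993, too near 1 to check, so these count tests used 17 libraries. Figures were drawn with Python 3.11.15 and matplotlib 3.10.9. The number of columns left unused was 0.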

Additional observations from a re-analysis of the deposited data

How the results depend on the processing

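Over 762 alternative values of the 39 results on the 3 genes and their ratios, 731 kept the direction and the side of the threshold and 31 did not. Of those 31, these came from settings other than leaving out 1 library. With no filter, RRM1 lost its thapsigargin call in Par (-0.19, adjusted p = 0.0655) and in GemR siSTIM1 (-0.21, adjusted p = 0.0574), and its siSTIM1 call under thapsigargin (0.19, adjusted p = 0.0643). With only the libraries compared, RRM1 lost the call in GemR siSTIM1 (-0.21, adjusted p = 0.0543) and RRM2B gained one between GemR siCont and Par under thapsigargin (-0.28, adjusted p = 3.4e-04), as it did with DESeq2 (-0.28, adjusted p = 0.0483). RRM1 gained a siSTIM1 call under vehicle with quantile normalization (0.31), DESeq2 (0.15) and without the 2 libraries with the length trend (0.15). Without these 2, the RRM2B difference between GemR siCont and Par with vehicle was 0.02 in place of -0.07 (also 0.02 without GemR siCont vehicle replicate 1), and the RRM2B difference between responses was -0.31. The median of log2 ratios gave 0.08 for RRM1 to RRM2 with thapsigargin. The cause of these changes was not tested.

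With 1 library left out at a time, log2 fold changes whose call or sign changed ranged from -0.21 to -0.17 (RRM1, thapsigargin in Par), -0.25 to -0.16 (RRM1, thapsigargin in GemR siSTIM1), 0.15 to 0.24 (RRM1, siSTIM1 with thapsigargin), 0.13 to 0.21 (RRM2, GemR siSTIM1 against Par with vehicle), 0.31 to 0.38 (RRM2B, thapsigargin in Par), -0.42 to -0.10 (RRM2B, thapsigargin in GemR siSTIM1), -0.12 to 0.02 (RRM2B, GemR siCont against Par with vehicle, in sign only) and -0.23 to -0.15 (RRM2 to RRM2B ratio, GemR siCont against Par).

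Counts of calls over all genes moved by more than 1.5 times with only the libraries compared, to 2843 in place of 4402 (thapsigargin in GemR siCont), 3129 in place of 5000 (GemR siCont against Par, vehicle), 3294 in place of 5496 (siSTIM1, vehicle) and 317 in place of 577 (siSTIM1 minus siCont response). The last was 346 with edgeR and 323 to 1216 with 1 library left out. The GemR minus Par response had 3852 calls in place of 1938 without the 2 libraries, and 1529 to 2943 with 1 left out.

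Deviations of same-numbered libraries were weakly related: of 27 pairs, with r of -0.18 to 0.23, 6 were over 0.1. Differently numbered libraries were not compared in this way, so whether the numbers pair the samples cannot be told. With the replicate number as a block no call of the 3 genes changed, and RRM2B had -0.72 with siSTIM1 under vehicle (adjusted p = 1.3e-04).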
